A study of Mus musculus with 2 samples.

Results

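The tumour necrosis factor (TNF) superfamily was examined in the thymus of 2 female B6CASTF1/J mice aged 25 days, with DNase-seq, which finds open chromatin by the rate at which the enzyme DNase I cuts the DNA of isolated nuclei. B6CASTF1/J is an F1 hybrid strain of laboratory mouse. The labels give the libraries separate biosamples and separately numbered females but 1 shared donor identifier, so they were taken as 2 animals, and n = 2 counts these libraries. Both belong to 1 group of whole tissue, and no condition was contrasted. The genes are 42 of 21938 protein-coding genes: those whose symbol starts with Tnfsf or Tnfrsf, and Tnf, Lta, Ltb, Fas, Fasl, Ltbr, Cd40, Cd40lg, Cd70 and Eda2r. Of the 42 genes, 18 encode ligands and 24 encode receptors.

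TNF superfamily ligands are mostly trimeric membrane proteins, and their receptors carry cysteine-rich repeats outside the cell. Some receptors have a death domain and can recruit caspases, whereas others recruit TRAF adaptors and activate NF-kB and kinases. In the thymus, developing T cells present Tnfsf11 (RANK ligand) and lymphotoxin to epithelial cells that carry Tnfrsf11a (RANK), Ltbr and Cd40, and this exchange is known to shape the medulla. Several co-stimulatory receptors of the family are also known from developing regulatory T cells.

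An open promoter is here a peak of the longer deposited list that touches the window from 1 kb before to 1 kb after the gene's 5′ end. Each peak carries a signal density set by the authors, whose scaling is not stated, so densities are set mainly against other peaks of the same library. The longer lists held 127552 peaks in replicate 1 and 67270 in replicate 2, and read depth is not stated. As a check on the tissue, promoters of all 10 T-lineage markers examined were open in both libraries, against 54.4% of all protein-coding genes. So were those of 1 of 6 B-lineage, 3 of 7 myeloid and dendritic, 4 of 10 thymic epithelial and 4 of 8 endothelial and stromal markers. In whole tissue, an open site in fewer cells and a less open site in each cell cannot be told apart.

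The sites at which both libraries showed the densest open chromatin nearest a member's start are printed below, so that the DNA behind the values can be read. Each is 150 bases of the reference genome (mm10, which is C57BL/6J, so the CAST allele may differ), written 5′ to 3′ on the strand of its gene. Capitals mark bases inside a footprint in both libraries, a footprint being a short stretch protected from cutting within an open site. Sites that could be shown without annotated coding or UTR bases were taken, which left out the densest promoter peak of Tnfrsf9 and a denser peak in an exon of Ltb described further on. The promoter windows lie at chr17:35194289-35194438 (plus strand) for Ltb, chr19:34290516-34290665 (plus) for Fas, chr17:57194295-57194444 (minus) for Tnfsf14, chr17:35204663-35204812 (minus) for Lta, chr17:23677469-23677618 (minus) for Tnfrsf12a and chr14:61046491-61046640 (minus) for Tnfrsf19.
Ltb promoter: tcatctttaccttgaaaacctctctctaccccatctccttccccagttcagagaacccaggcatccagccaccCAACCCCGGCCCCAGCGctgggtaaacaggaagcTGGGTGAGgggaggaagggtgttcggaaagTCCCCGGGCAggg
Fas promoter: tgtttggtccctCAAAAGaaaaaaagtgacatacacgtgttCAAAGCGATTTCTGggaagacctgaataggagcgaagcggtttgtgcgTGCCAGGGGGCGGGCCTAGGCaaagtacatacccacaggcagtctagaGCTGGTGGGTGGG
Tnfsf14 promoter: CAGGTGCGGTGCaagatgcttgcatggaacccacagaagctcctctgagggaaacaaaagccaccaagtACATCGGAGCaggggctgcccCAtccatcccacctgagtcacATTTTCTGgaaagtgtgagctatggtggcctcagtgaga
Lta promoter: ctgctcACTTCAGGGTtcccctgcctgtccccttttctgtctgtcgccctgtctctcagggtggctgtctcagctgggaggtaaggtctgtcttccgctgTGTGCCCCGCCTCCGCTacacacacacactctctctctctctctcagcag
Tnfrsf12a promoter: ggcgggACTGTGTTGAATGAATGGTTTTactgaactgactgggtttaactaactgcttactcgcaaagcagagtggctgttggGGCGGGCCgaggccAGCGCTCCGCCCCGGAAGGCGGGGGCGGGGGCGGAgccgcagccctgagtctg
Tnfrsf19 promoter: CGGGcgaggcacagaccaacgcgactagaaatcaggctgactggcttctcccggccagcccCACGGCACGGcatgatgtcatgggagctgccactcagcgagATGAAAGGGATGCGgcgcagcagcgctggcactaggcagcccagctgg
The windows of Ltb, Fas, Tnfrsf12a and Tnfrsf19 are the 150 bases just upstream of the gene start. That of Tnfsf14 lies 118 to 267 bases upstream, and that of Lta lies 539 to 688 bases downstream, inside the gene.

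The second set shows, under the same limit on coding and UTR bases, the densest shared sites farther than 1 kb from the start, 1 per gene. All 4 lie in introns of the gene they are named for. They are at chr6:125355335-125355484 (plus strand) for Tnfrsf1a, chr14:61012475-61012624 (minus) for Tnfrsf19, chr17:35200585-35200734 (minus) for Tnf and chr4:145312755-145312904 (minus) for Tnfrsf8.
Tnfrsf1a intron: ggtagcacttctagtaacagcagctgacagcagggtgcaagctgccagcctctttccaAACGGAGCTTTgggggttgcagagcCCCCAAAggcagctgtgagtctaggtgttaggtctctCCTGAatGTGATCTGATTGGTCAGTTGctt
Tnfrsf19 intron: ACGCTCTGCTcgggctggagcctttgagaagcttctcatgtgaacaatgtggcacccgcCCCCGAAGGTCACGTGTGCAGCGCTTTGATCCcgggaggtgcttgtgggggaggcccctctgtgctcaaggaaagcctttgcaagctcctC
Tnf intron: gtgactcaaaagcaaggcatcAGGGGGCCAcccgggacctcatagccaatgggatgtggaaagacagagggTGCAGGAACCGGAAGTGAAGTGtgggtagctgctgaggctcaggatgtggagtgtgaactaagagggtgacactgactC
Tnfrsf8 intron: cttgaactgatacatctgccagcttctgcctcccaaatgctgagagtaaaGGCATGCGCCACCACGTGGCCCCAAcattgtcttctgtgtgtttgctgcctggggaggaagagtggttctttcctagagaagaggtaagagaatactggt
Between 25 and 65 of the 150 bases in each of these 10 windows were covered by footprints of both libraries, with the fewest at the Tnfrsf8 intron and the most at the Tnfrsf12a promoter.

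Promoters of 27 of the 42 genes (64.3%) were open in both libraries, against 54.4% of all protein-coding genes. By library, 35 genes were open in replicate 1 and 27 in replicate 2, against 61.7% and 55.1% of all genes. Replicate 1 alone had an open promoter at 8 members, against 7.21% of all genes, and replicate 2 alone had one at 0 members, against 0.638%. The other 7 members had no promoter peak in either library, against 37.7% of all genes. Receptors were open in both libraries at 17 of 24 genes and ligands at 10 of 18. The 95% Wilson intervals, which cover counting error only, were 69.4% to 91.7% for the share of members open in replicate 1, 49.2% to 77.0% for that in both libraries and 8.32% to 30.6% for that in neither. No test compared the libraries, which are replicates of 1 group, and no p-value is given.

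**Figure D1:**
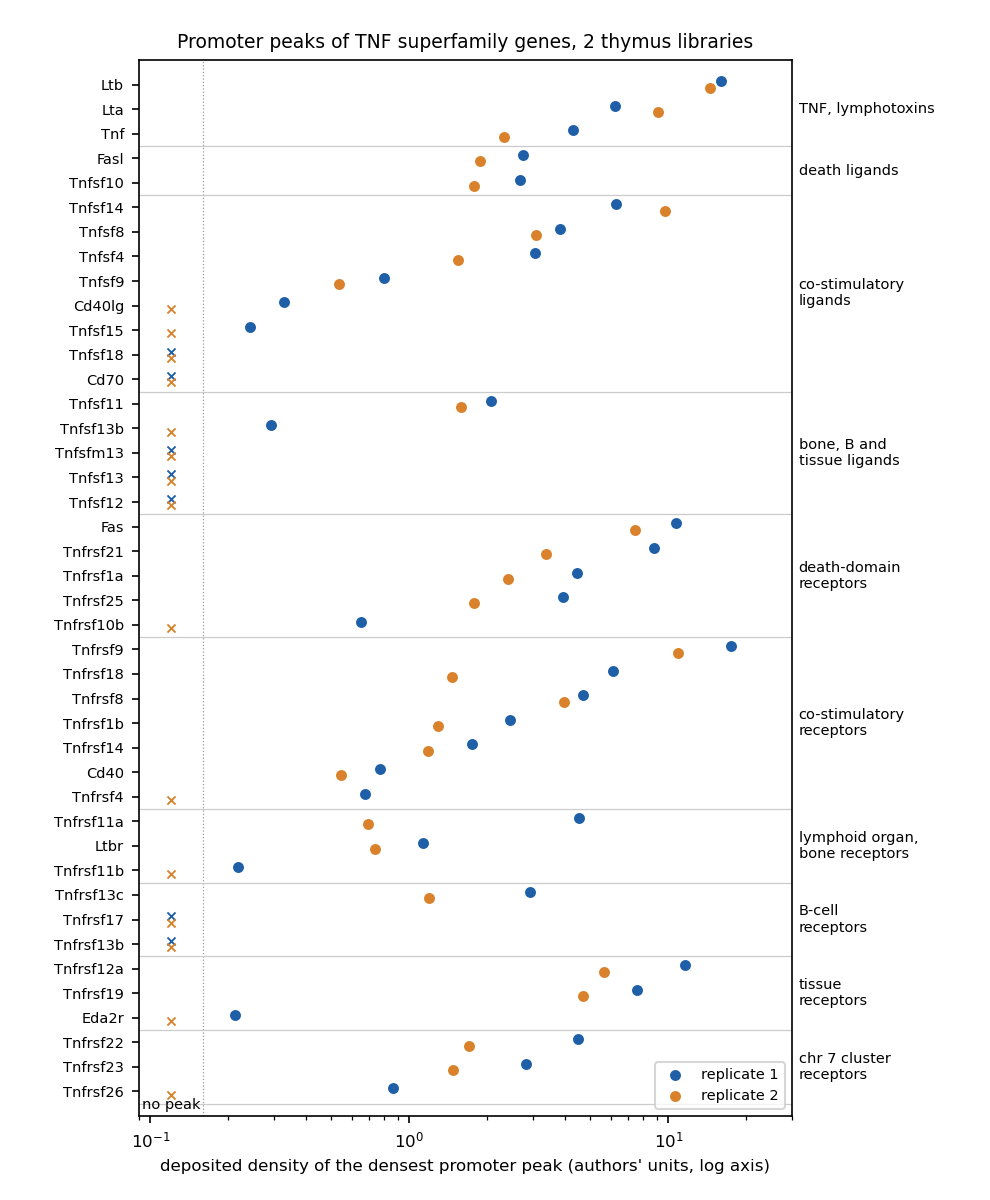
Deposited density of the densest promoter peak (authors' units, log axis) for each of the 42 genes, grouped by role, with 1 point per library (blue, replicate 1; orange, replicate 2) and crosses left of the dotted line where a library had no promoter peak. Points range from 0.212 for Eda2r to 17.4 for Tnfrsf9, and all crosses outside the 7 genes closed in both libraries are of replicate 2.

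Among the ligands, the TNF and lymphotoxin genes were open throughout. Ltb, which encodes the membrane anchor of the lymphotoxin heterotrimer, had a densest promoter peak of 16.0 in replicate 1 and 14.4 in replicate 2. Lta, which encodes the soluble lymphotoxin chain, had 6.24 and 9.14. Its densest promoter peak lay 671 bp inside the gene in replicate 1 and 681 bp inside it in replicate 2. A peak nearer the Lta start, 121 bp inside the gene, had 4.65 in replicate 1. It overlapped a replicate 2 peak at the 83.6th percentile of that library's peaks. Tnf, the founding inflammatory cytokine of the family, had 4.27 and 2.31. Ltb was above 68.6% of all open promoters of replicate 1 and 82.6% of those of replicate 2, whereas Tnf was above 32.8% and 27.0%.

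Both death ligands were open at similar levels. Fasl, which encodes the ligand of Fas and is used by killer lymphocytes, had promoter densities of 2.76 in replicate 1 and 1.88 in replicate 2. Tnfsf10, which encodes the apoptosis-inducing ligand TRAIL, had 2.67 and 1.78. Each lay in the lower part of the open promoters of its library, above between 22.5% and 26.2% of them.

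Of the 8 co-stimulatory ligands, 4 were open in both libraries, against 54.4% of all genes. The Wilson interval of this share was 22% to 78%, so it did not set these ligands apart from all genes. No test compared the roles. Tnfsf14 (LIGHT), a ligand of Tnfrsf14 and Ltbr, had 6.25 in replicate 1 and 9.70 in replicate 2. Tnfsf8, the ligand of Tnfrsf8 (CD30), had 3.80 and 3.07. Tnfsf4, the ligand of Tnfrsf4 (OX40), had 3.06 and 1.54, and Tnfsf9, the ligand of Tnfrsf9, had 0.799 and 0.534. Cd40lg, the ligand of Cd40 and a helper signal to B cells, had a promoter peak of 0.328 in replicate 1 and none in replicate 2. Tnfsf15, a ligand of Tnfrsf25, had one of 0.243 in replicate 1 and none in replicate 2. Tnfsf18, the ligand of Tnfrsf18 (GITR), and Cd70, the ligand of Cd27, had no promoter peak, and 0 peaks in the gene or its flanks of 10 kb, in either library.

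The ligands of bone, B cells and tissue repair were open in both libraries at 1 of 5 genes. The Wilson interval was 3.6% to 62%, which includes the 54.4% of all genes. It treats the 5 genes as independent, although Tnfsfm13 spans Tnfsf12 and Tnfsf13, so it is likely too narrow. Tnfsf11, whose product drives osteoclasts and medullary epithelium, had 2.07 in replicate 1 and 1.58 in replicate 2. Its densest promoter peak lay 963 bp inside the gene in replicate 1 and 973 bp inside it in replicate 2. Tnfsf13b (BAFF), a survival factor for B cells, had a peak of 0.291 in replicate 1 and none in replicate 2. Tnfsf12 (TWEAK), Tnfsf13 (APRIL) and Tnfsfm13, a transcription unit that joins both, had no promoter peak in either library.

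Death-domain receptors were open in both libraries at 4 of 5 genes. The Wilson interval was 38% to 96%, which includes the 54.4% of all genes. Fas, the receptor of Fasl, had a promoter density of 10.7 in replicate 1 and 7.44 in replicate 2. Tnfrsf21 (death receptor 6) had 8.79 and 3.35, and Tnfrsf1a, the main death-domain receptor of TNF, had 4.42 and 2.41. Tnfrsf25 (death receptor 3), the receptor of Tnfsf15, had 3.91 and 1.77. Fas had the densest promoter of these genes in both libraries. Tnfrsf10b, the TRAIL receptor with a death domain in mice, had 0.651 in replicate 1 and none in replicate 2.

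Co-stimulatory receptors were open in both libraries at 6 of 7 genes. The Wilson interval was 49% to 97%, which includes the 54.4% of all genes. Tnfrsf9 (CD137), a receptor of activated T cells, had the densest promoter of all members in replicate 1, at 17.4, and had 10.9 in replicate 2, where Ltb alone was denser. Tnfrsf18, a receptor abundant on regulatory T cells, had 6.11 and 1.46, and Tnfrsf8, a marker of activated lymphocytes, had 4.68 and 3.95. Tnfrsf1b, the TNF receptor without a death domain, had 2.45 and 1.28. Tnfrsf14 (HVEM), the receptor of Tnfsf14, had 1.75 and 1.18, and Cd40, a receptor of B cells and antigen-presenting cells, had 0.767 and 0.546. Tnfrsf4 was open in replicate 1 alone, at 0.672. The spread within the group was wide, with Tnfrsf9 and Cd40 at its ends among the genes open in both libraries.

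Of the receptors for lymphoid organs and bone, Tnfrsf11a had 4.51 in replicate 1 and 0.690 in replicate 2, and Ltbr had 1.13 and 0.738. Tnfrsf11b, which encodes the secreted decoy receptor of RANK ligand, had 0.217 in replicate 1 and none in replicate 2. Of the receptors for B-cell survival factors, Tnfrsf13c (BAFF receptor) had 2.91 in replicate 1 and 1.19 in replicate 2, and Tnfrsf13b (TACI) and Tnfrsf17 (BCMA) had no promoter peak. Of the receptors of epithelial and other tissue, Tnfrsf12a, the receptor of Tnfsf12, had 11.6 and 5.65. Tnfrsf19 (TROY), a receptor known from skin and brain, had 7.54 and 4.68. Eda2r, a receptor of the ectodysplasin pathway, had 0.212 in replicate 1 and none in replicate 2. Tnfrsf12a and Tnfrsf19 were thus among the denser promoters of the family in both libraries.

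Of the 27 promoters open in both libraries, 25 had the higher density in replicate 1. Lta, by the peak inside its gene, and Tnfsf14 had it in replicate 2. Placed among all open promoters of the same library, which needs no common scale, 19 stood higher in replicate 1 and 8 in replicate 2. The 8 promoters called in replicate 1 alone had densities from 0.212 to 0.862 there, at or below the 51.4th percentile of that library's peaks. The genes open in both libraries had densities from 0.767 to 17.4 in replicate 1. Most members had a less dense promoter than the typical open gene. The median densest promoter peak was 2.91 over the 35 open members in replicate 1 and 1.78 over the 27 in replicate 2, against 9.43 and 5.56 over all open genes. Ltb, Tnfrsf9, Fas and Tnfrsf12a exceeded the median of all open genes in replicate 1, and those 4 genes with Lta and Tnfsf14 did so in replicate 2. For Lta this holds for its peak 681 bp inside the gene. The replicate 2 peak nearer the Lta start lay at the 83.6th percentile, below the median of 87.4 over all open genes.

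Marker lists of other cell types were compared in the same way, beside all genes. In replicate 1, promoters of 3 of 6 B-lineage, 4 of 7 myeloid and dendritic, 5 of 10 thymic epithelial and 5 of 8 endothelial and stromal markers were open, and in replicate 2 those of 1, 3, 4 and 4. Over all genes, 61.7% were open in replicate 1 and 55.1% in replicate 2. Summed promoter density was 1.79 and 1.02 over the B-lineage list in replicates 1 and 2, 3.50 and 2.17 over the myeloid list, 37.1 and 21.7 over the epithelial list, 13.8 and 7.21 over the stromal list and 95.7 and 91.6 over the T-lineage list. As a ratio of replicate 1 to replicate 2, these sums were 1.75 for the B-lineage, 1.61 for the myeloid, 1.70 for the epithelial and 1.91 for the stromal list, against 1.71 over all genes, and 1.04 for the T-lineage list. The sums cover open promoters only, which were fewer in replicate 2 except on the T-lineage list, with 10 in each library. A single gene can weigh heavily, as Ly75 gave 19.5 of the 37.1, and the ratios assume a common density scale that is not stated. Of the defining markers, Pax5, Foxn1 and Psmb11 had no promoter peak in either library, whereas Cd79b of the B-lineage list and Ly75, Aire, Cldn4 and Epcam of the epithelial list had one in both. The part of cell composition, or of the longer peak list, in the 8 promoters called in replicate 1 alone was not tested.

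The deposited false discovery rate of the cut rate was read at the same promoters. It comes from the same library's alignment as the peaks, so it is not an independent check of the peak calls. At least 1 base of the 2 kb around the start had a rate below 0.05 at 37 members in replicate 1 and 29 in replicate 2, against 62.7% and 56.3% of all genes. All 8 promoters called in replicate 1 alone had such bases there, from 103 bases at Cd40lg to 1382 at Tnfrsf26. In replicate 2, Tnfrsf26 had 9 such bases, Tnfsf15 had 2 and the other 6 had 0. The median share of promoter bases below that rate was 34.7% over members in replicate 1 and 15.6% in replicate 2, against 29.0% and 14.0% over all genes. Footprints touched the promoters of 33 members in replicate 1, 27 in replicate 2 and 27 in both, against 59.7%, 54.0% and 53.4% of all genes.

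Most members start in DNA with few CpG dinucleotides. In the 250 bases upstream and 50 bases downstream of the start, 35 of 42 members had an observed to expected CpG ratio below 0.6, here called CpG-poor, against 55.6% of all genes. Of these 35 CpG-poor promoters, 21 (60%) were open in both libraries, against 28.0% of all 12204 CpG-poor promoters. Of the 7 CpG-rich members, 6 were open in both (85.7%), against 87.6% of all CpG-rich promoters. The median ratio over members open in both libraries was 0.441, against 0.756 over all genes open in both. These shares describe the family, and no test was made of them.

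**Figure D2:**
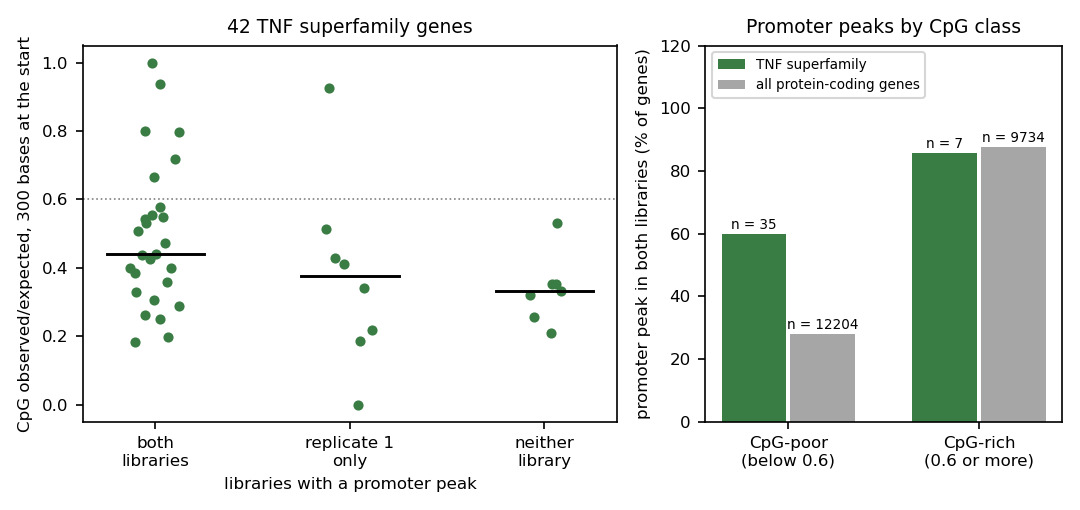
Left, observed to expected CpG ratio in 300 bases at the start of each of the 42 genes, by the libraries in which its promoter was open; bars are medians and the dotted line is the limit of 0.6. Right, share of genes open in both libraries among CpG-poor and CpG-rich starts, with TNF superfamily genes in green left of all protein-coding genes in grey; the green bar is the taller one for CpG-poor starts, at 60% against 28.0%.

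Motif letters were counted in the same 300 bases on both strands, overlapping matches included. An NF-kB consensus was found at 6 members (14.3%), against 4.89% of all genes. These were Ltb, Cd40, Tnfrsf8, Tnfsf15, Tnfrsf11b and Cd70, of which the first 3 were open in both libraries. The match began 19 bases upstream of the start at Ltb, 74 at Cd40 and 168 at Tnfrsf8. In the Ltb window printed above, it begins at base 132, and its last letters run into capitals. In 150-base windows at the distinct peaks of members, NF-kB was found in 4.43% of 271 peaks in replicate 1 and 6.21% of 145 in replicate 2, against 2.55% and 2.79% of all peaks.

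Motifs of factors known from T-lineage and general promoters were counted at the starts in the same way. The ETS letters CCGGAAG were found at 3 members (7.14%), against 10.8% of all genes, and these were Tnfrsf1b, Tnfrsf9 and Tnfrsf12a. The RUNX letters TGTGGTT were found at Tnfrsf13c and Tnfsf14 (4.76%), against 5.09%. The TCF/LEF letters CTTTGA were found at 6 members (14.3%), against 15.8%, and the SP/KLF letters GGGCGG at 21 (50%), against 43.0%. The NFY letters CCAAT were found at 10 members (23.8%), against 39.0%. The E-box letters CAGCTG were found at 10 members (23.8%), against 15.6%, and the NFAT letters TGGAAA at 8 (19.0%), against 20.9%. The AP-1 letters TGANTCA and the GATA letters AGATAA were each found at 4 members (9.52%), against 6.91% and 10.2%. The CRE letters TGACG followed by TCA and a CTCF consensus were found at 0 members, against 2.43% and 0.556%. A match is only a match of letters, and no match says only that those letters are not in the window.

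Several of the printed windows held such letters inside shared footprints. In the Tnfrsf12a promoter, the ETS letters at base 109 and SP/KLF letters at bases 104, 120 and 126 stood in capitals, with the ETS match sharing a base with the first of the 3. In the Fas promoter, SP/KLF letters at base 97 stood in capitals. In the Tnf intron, the ETS letters at base 80 stood in capitals, and in the Tnfrsf19 intron, the TCF/LEF letters at base 83 did. None of the 12 motifs searched was found in the Tnfrsf8 intron window.

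Peaks beyond the promoters were counted next. The territory of a gene is here the gene plus flanks of 10 kb. Members averaged 7.52 peaks per territory in replicate 1 and 4.05 in replicate 2, a mean of 5.79 ± 2.46 (SD, n = 2), against 6.02 and 3.36 over all genes. The median per 10 kb was 1.95 in replicate 1 and 0.942 in replicate 2 for members, against 0.862 and 0.422 for all genes. At least 1 peak in both libraries was found at 38 members (90.5%), against 73.1% of all genes. The exceptions were Tnfsf18 and Cd70, with 0 peaks, and Tnfsf15 and Tnfrsf11b, with 2 peaks in replicate 1 and 0 in replicate 2.

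**Figure D3:**
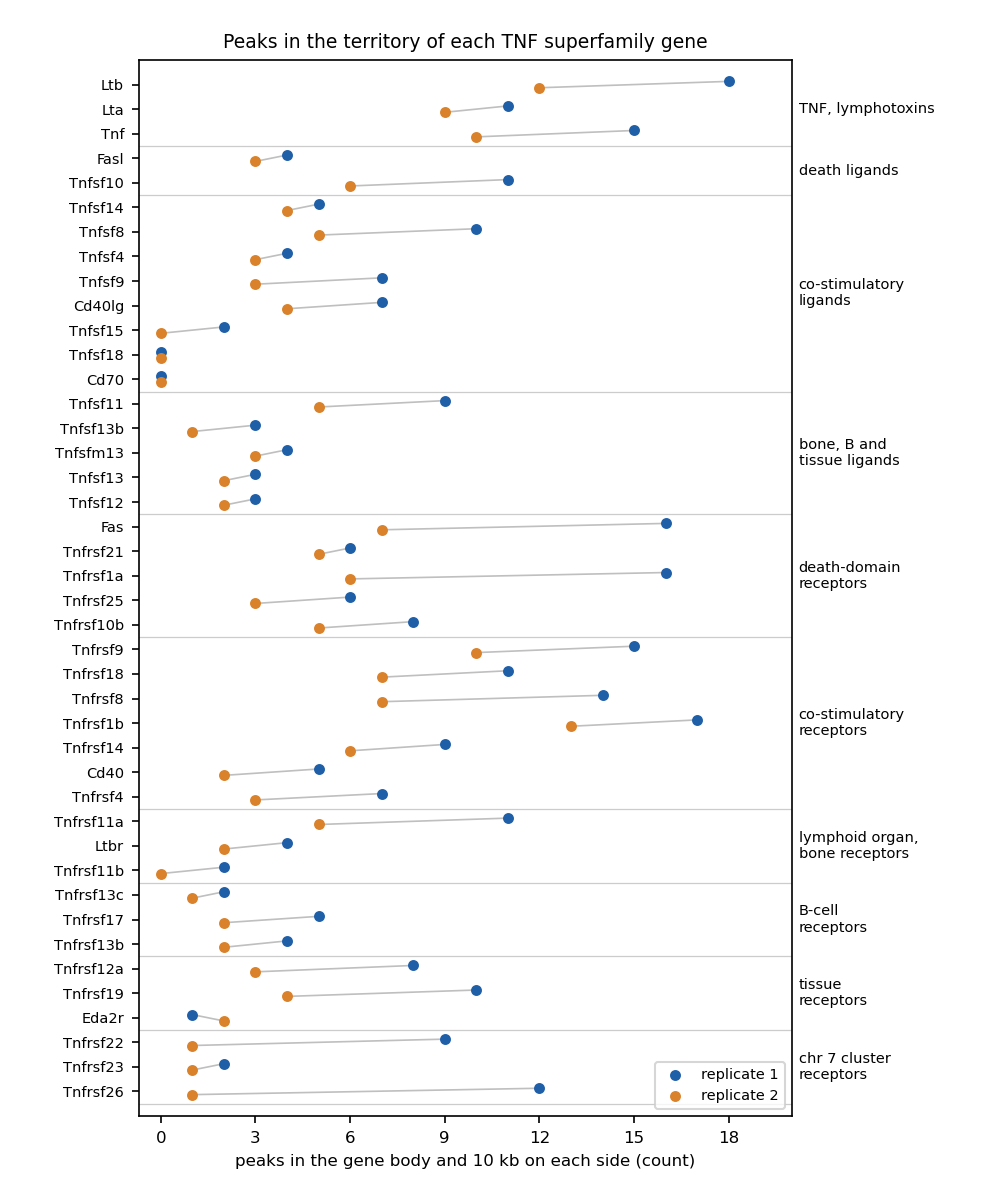
Number of peaks in the gene plus flanks of 10 kb, for each member and library. Ltb has the most in replicate 1, at 18, and Tnfrsf1b the most in replicate 2, at 13; Tnfrsf26 has 12 in replicate 1 and 1 in replicate 2.

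By the mean of the libraries, the 10 members with the most peaks were Ltb, Tnfrsf1b, Tnf, Tnfrsf9, Fas, Tnfrsf1a, Tnfrsf8, Lta, Tnfrsf18 and Tnfsf10, so 4 ligands and 6 receptors. Ltb had 18 peaks in replicate 1 and 12 in replicate 2, and Tnfrsf1b had 17 and 13. Tnf and Tnfrsf9 each had 15 and 10, Fas had 16 and 7, and Tnfrsf1a had 16 and 6. Tnfrsf8 had 14 and 7, Lta had 11 and 9, Tnfrsf18 had 11 and 7, and Tnfsf10 had 11 and 6. All 10 had more peaks in replicate 1, as did 39 of the 42 members, against 71.4% of all genes. Eda2r, with 1 peak in replicate 1 and 2 in replicate 2, had more in replicate 2, and Tnfsf18 and Cd70 were equal at 0.

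Neighbouring members share peaks, so distinct peaks were counted too. There were 271 in replicate 1 and 145 in replicate 2. Of the 271, 52.8% (95% Wilson interval 46.8% to 58.6%) overlapped a peak of the other library, against 46.9% of all peaks, and of the 145, 97.9% (94.1% to 99.3%) did, against 88.8%. Introns held 38.7% of the peaks in replicate 1 and 37.2% in replicate 2, promoters 29.9% and 28.3%, intergenic DNA 22.9% and 25.5%, and exons 8.49% and 8.97%. A member's start was the nearest gene start for 86.3% and 87.6% of the peaks.

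Tnf, Lta and Ltb lie within 10.9 kb on chromosome 17 and share most of their peaks. Their joint territory held 19 peaks in replicate 1 and 13 in replicate 2, and all 13 overlapped a peak of replicate 1. A peak in an exon of Ltb, 1421 bp downstream of its start, had a density of 27.6 in replicate 1 and 11.8 in replicate 2. The Ltb promoter printed above had 16.0 and 14.4, so that this exon peak was the denser of the pair in replicate 1 and the less dense in replicate 2. The Tnf intron peak, 1347 bp downstream of the Tnf start, had 7.96 in replicate 1 and 11.3 in replicate 2, and exceeded the Tnf promoter in both libraries.

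**Figure D4:**
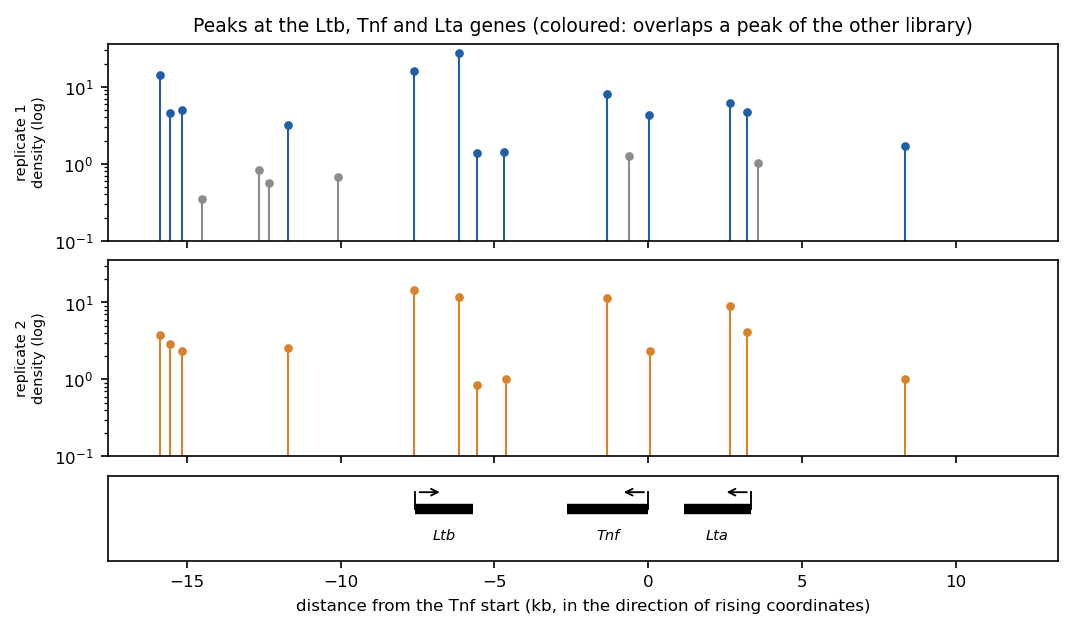
Peaks of each library around Ltb, Tnf and Lta, drawn at their distance from the Tnf start (kb) with their deposited density (log axis); coloured stems overlap a peak of the other library and grey stems do not, and arrows give the direction of each gene. The stems at the Ltb start and in the Ltb gene reach 16.0 and 27.6 in replicate 1, and all stems of replicate 2 are coloured.

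At other members, too, the densest site lay away from the start. The Tnfrsf1a intron printed above, 6.05 kb downstream of the start in replicate 1 and 6.08 kb in replicate 2, had a density of 9.60 in replicate 1 and 15.9 in replicate 2, each above the gene's promoter. The Tnfrsf19 intron, 33.9 kb downstream of the start, had 14.0 and 9.84, also above its promoter in both libraries. A peak 8.59 kb upstream of Tnfsf9 had 11.3 in replicate 1 and 1.81 in replicate 2, against 0.799 and 0.534 at its promoter. Upstream of Tnfrsf14, peaks 8.18 kb and 8.53 kb from the start had 3.57 and 5.24 in replicate 1 and 4.82 and 3.79 in replicate 2. The Tnfrsf8 intron printed above had 7.88 in replicate 1 and 4.30 in replicate 2, next to a promoter of 4.68 and 3.95. In replicate 1 another intron peak, 19.4 kb downstream of the Tnfrsf8 start, was denser, at 8.42. Its partner in replicate 2 lay at the 53.8th percentile of that library's peaks.

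Some genes without a shared open promoter had shared sites elsewhere. Cd40lg had a peak 16.2 kb downstream of its start with 2.67 in replicate 1 and 2.85 in replicate 2, and one 1.36 kb upstream with 1.05 in replicate 1 that had a partner at 1.37 kb with 1.33 in replicate 2. Tnfrsf13b had an intron peak about 15.7 kb downstream of its start with 2.95 and 2.63, which lies within 1 kb of another annotated transcript start of the gene. Tnfrsf10b had an intron peak 6.98 kb downstream with 2.66 and 2.35, and Tnfrsf17 one of 0.883 and 0.672. When any annotated transcript start was allowed, 28 members were open in both libraries, Tnfrsf13b being the addition, against 59.0% of all genes.

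The receptor cluster of chromosome 7 had far fewer peaks in replicate 2. Tnfrsf22 and Tnfrsf23, which in mice encode decoy receptors for TRAIL, had promoter densities of 4.48 and 2.82 in replicate 1 and 1.70 and 1.47 in replicate 2. Their neighbour Tnfrsf26 had 0.862 in replicate 1 and no promoter peak in replicate 2. Tnfrsf26 had 12 peaks in its territory in replicate 1 and 1 in replicate 2, and no other member had 10 or more in replicate 1 with at most 1 in replicate 2, against 0.205% of all genes. The cluster held 15 distinct peaks in replicate 1, of which 12 had no partner, and 3 in replicate 2. Peaks without a partner reached a density of at most 1.72. The densest peak of the cluster, with 21.5 and 18.2, lay at the promoter of Cars, the neighbouring gene for a tRNA synthetase.

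**Figure D5:**
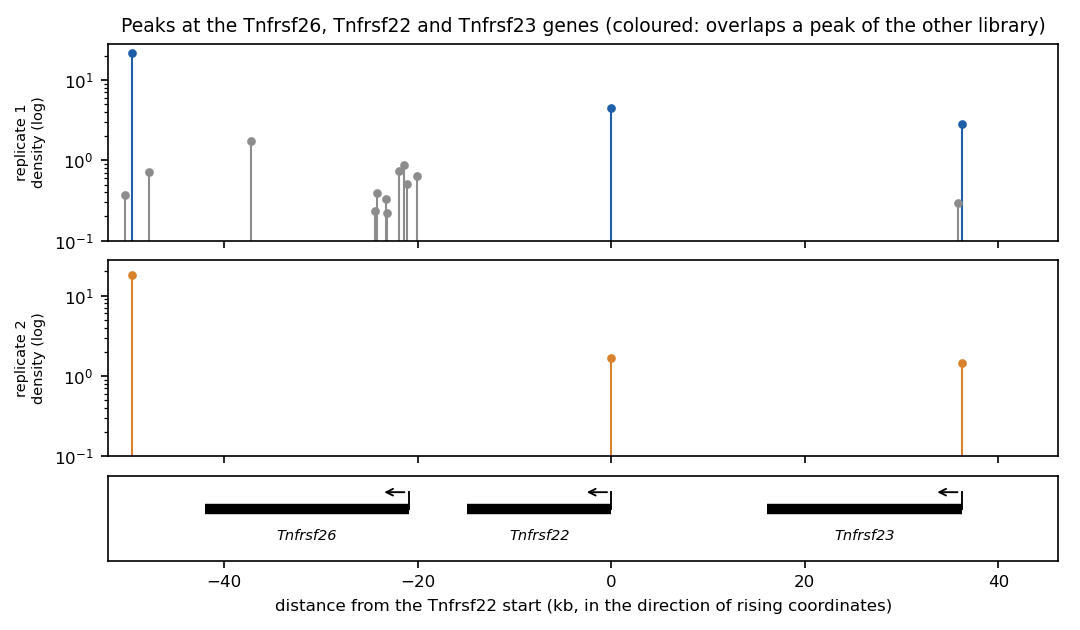
Peaks of each library around Tnfrsf26, Tnfrsf22 and Tnfrsf23, drawn at their distance from the Tnfrsf22 start (kb) with their deposited density (log axis). Coloured stems overlap a peak of the other library and grey stems do not. Replicate 1 has 15 stems, 12 of them grey, and replicate 2 has 3.

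Other clusters of neighbouring members were compared in the same way. Tnfrsf1b and Tnfrsf8 together held 31 peaks in replicate 1 and 20 in replicate 2, Ltbr and Tnfrsf1a 20 and 8, and Tnfrsf4 and Tnfrsf18 12 and 7. Tnfsf9, Cd70 and Tnfsf14 held 12 and 7, Tnfsf15 and Tnfsf8 12 and 5, and Tnfsf4, Tnfsf18 and Fasl 8 and 6. Every one of these peaks of replicate 2 overlapped a peak of replicate 1. The cluster of Tnfsf12, Tnfsf13 and Tnfsfm13 held 4 and 3 peaks, of which 0 had a member's start as the nearest one, although they reached 45.7 and 33.8.

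Ligands and receptors were then set side by side over 22 known pairs. Both partners had an open promoter in both libraries in 10 pairs, among them Tnf with Tnfrsf1a and Tnfrsf1b, Ltb with Ltbr, Fasl with Fas, and Tnfsf11 with Tnfrsf11a. The receptor alone was open in both libraries in 5 pairs, including Tnfsf18 with Tnfrsf18 and Cd40lg with Cd40. The ligand alone was open in 3 pairs: Tnfsf10 with Tnfrsf10b, Tnfsf4 with Tnfrsf4, and Tnfsf11 with Tnfrsf11b. The list is not complete, and the counts depend on it. It holds the decoy receptor Tnfrsf11b but leaves out Tnfrsf22 and Tnfrsf23, the decoy receptors for Tnfsf10, which were open in both libraries. Neither partner was open in both libraries in 4 pairs, all of which pair Tnfsf13 or Tnfsf13b with Tnfrsf13b or Tnfrsf17. Taken singly, 55.6% of the ligands and 70.8% of the receptors were open in both libraries. Many pairs with both partners open would therefore arise without any matching of partners, and matching was not tested. The 2 partners of a pair may act in different cells, which whole tissue does not separate.

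Other genes of the pathway were nearly all open. Of 45 such genes, 44 had an open promoter in both libraries, against 54.4% of all genes. They were 15 of 15 adaptors, 9 of 10 proteases and inhibitors, 14 of 14 kinases and NF-kB genes, and 6 of 6 ligands, receptors and adaptors of the superfamily that carry other symbols. The exception was Xiap, a caspase inhibitor, with no promoter peak and 4 and 2 peaks in its territory; when any annotated transcript start was allowed, all 45 were open in both libraries. The median density of the 44 open promoters was 9.66 in replicate 1 and 5.57 in replicate 2, against 9.43 and 5.56 over all open genes. CpG-poor starts were found at 16 of the 45 genes (35.6%), against 55.6% of all genes. Of all CpG-rich promoters, 87.6% were open in both libraries, so the share of all genes is not matched to these genes for CpG content. The 3 genes with the most territory peaks were Map3k5, a stress kinase, with 31 and 13, Cd27, the receptor of Cd70, with 29 and 14, and Map3k14, the kinase of the alternative NF-kB pathway, with 24 and 17. The promoter of Map3k14 had 41.2 in replicate 1 and 38.6 in replicate 2, denser than any member's.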

How the data were processed

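DNase-seq files of 2 thymus libraries were analysed as 1 group, numbered as in the labels. The labels give separate biosamples and numbered females but 1 donor identifier, and the libraries were taken as 2 animals. The build was mm10, per the labels. Which aligner and callers were used is not given in the sources used here. Per the deposited notes each file came from its own library's filtered alignment. The authors deposited 2 peak lists per library with a signal density per peak of unstated scaling; the longer list was used. The deposited false discovery rate (a q-value per run of bases) lists values below 0.05. The deposited footprints hold 1 constant value, and their positions alone were used.

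GENCODE M21 gave 21951 protein-coding genes, of which 21938 off the mitochondrial chromosome were kept. Promoters ran from 1 kb before to 1 kb after the gene start, and territories were the gene plus flanks of 10 kb; an overlap of 1 bp counted. Places among peaks are percentiles within 1 library. Intervals are 95% Wilson intervals, which treat genes or peaks as independent, although some neighbouring members overlap or share territory. The overlap counting was checked against a direct count on simulated intervals and on intervals planted in promoter windows. The deposited peak and footprint calls themselves were not checked this way. Scripts ran in Python 3.11.15 (pandas 2.3.3, numpy 2.4.6, matplotlib 3.10.9, scipy 1.17.1).

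Members, roles, pairs, motifs and gene lists were chosen with earlier results of these data known. Values are given for members open in both libraries or in 1 library, and for the 10 with the most territory peaks; pathway genes are named only if closed in both libraries or among the 3 with the most territory peaks. Alternatives were other windows, starts, peak lists and overlaps, and leaving out each library. Depth is not stated, so intervals cover counting error only.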

Additional observations from a re-analysis of the deposited data

How the results depend on the processing

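Of 58 alternatives over the counts and shares reported, 53 stayed within 1.5 times a count or within the error of a value, and 5 moved. This limit is wide for the counts: a change from 27 to 35 members fell inside it, and 44 of 45 pathway genes could not rise that far. Leaving out replicate 1 had to return 27 members, as replicate 2 alone had an open promoter at 0 members. The tally is therefore not a strong test of stability. Peaks per member territory, 5.79 as reported, were 3.06 over the gene body alone and 14.3 with 50 kb on each side. The share of member peaks of replicate 1 with a partner, 52.8% as reported, was 60.3% among the denser 50% of each list and 75.6% once the list of replicate 1 was reduced by density to the length of that of replicate 2, and that reduction took the share of replicate 2 to 85.5%, against 97.9% as reported. These alternatives change which peaks and how much DNA are counted by construction.

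Leaving out each library in turn gave 27 to 35 members with a promoter peak, 10 to 13 ligands, 17 to 22 receptors, 44 to 44 other genes of the pathway, 27 to 33 members with a footprint and 4.05 to 7.52 peaks per territory. Windows of 2 kb on either side added Cd40lg to the members open in both libraries, and any annotated transcript start added Tnfrsf13b. The shorter deposited lists lost Cd40 and Tnfsf9, and the denser 50% of each list lost those 2 genes, Tnfrsf11a and Ltbr. No paired analysis was possible because both libraries belong to 1 group. With 2 libraries of unstated depth, no difference between them could be tested, and a promoter without a peak is one not detectable at this depth.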
